A study of Drosophila melanogaster with 10 samples.

Results

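Slimp is the gene of SLIMP, a paralog of mitochondrial seryl-tRNA synthetase (the enzyme that charges tRNA with serine) that is found in insects and located in mitochondria. Among 10 Affymetrix expression arrays of sorted Drosophila S2 cells, 5 held cells sorted in G2/M, and the Slimp signal on these 5 split into a high and a low side. The high side was made of the arrays labelled control 3 and knockdown 2, and the low side of those labelled control 1, control 2 and knockdown 3. The arrays were chosen by 1 measured value, the signal of the Slimp probe set (the group of probes that reads its transcript): above 11 on the log2 scale an array was high, below it low. The G2/M arrays read 12.51 and 12.53 on the high side, against 8.90, 9.06 and 8.97 on the low side. Nearest to the cut were control 3 at 12.51 and control 2 at 9.06. The sides differed by 3.54 (12.52 ± 0.01, SD, n = 2, against 8.98 ± 0.08, SD, n = 3), 11.6-fold. These values chose the sides and are not a result, and the Slimp probe set was left out of every test.

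S2 is an established line derived from embryos, with traits of haemocytes, the blood cells of the fly. The labels called the control cells wild-type S2 cells and the others S2 cells with a SLIMP knockdown, which the study switched on in stable lines with copper sulfate. Whether the controls also received copper is not given in the sources used here. The sort used the DNA content of living cells, read with a fluorescent stain, to collect G1 and G2/M fractions. Each extract came from 25000 cells and the cDNA was amplified through 15 PCR cycles. The high side thus held 1 array labelled control and 1 labelled knockdown, both in G2/M. The low side held 2 labelled control and 1 labelled knockdown, also in G2/M. The Slimp signal did not follow the genotype labels, with both labels on each side. Arrays are therefore named by their labels and no direction is drawn from knockdown or control. Below, a culture means the G1 and G2/M arrays with the same genotype label and number, which the labels do not say are separate cultures. High-side values are given in the order control 3, knockdown 2, and low-side values in the order control 1, control 2, knockdown 3.

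Mitochondria keep their own ribosomes and aminoacyl-tRNA synthetases, which translate a small set of respiratory chain subunits. The remaining subunits, and the mitochondrial ribosomal proteins, are encoded in the nucleus and imported. A cell passes from G1 through S phase, when DNA is copied, to G2 and mitosis, and transcripts of the replication and mitotic machinery follow this cycle, so a G2/M sort is normally rich in mitotic transcripts.

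The 5 arrays were alike within a side and less alike between sides. The high-side arrays differed from each other by a median of 0.109 (log2) over all probe sets, and the low-side arrays by 0.083 to 0.102. Arrays of different sides differed by 0.126 to 0.148. More than 1 log2 unit separated 5 probe sets within the high side and 4 to 11 within the low side, against 191 to 253 between sides. Because 1 measured value, and not a label, set the sides, each p-value below describes how far these 5 arrays separated. The smallest number of arrays on a side was 2, which limits the precision of every value.

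Over 18768 probe sets, limma called 1894 (10.1%) at an adjusted p under 0.05. Of these, 788 were higher on the high side (4.2% of all tested) and 1106 were lower (5.89%). The calls named 619 genes that were higher and 855 that were lower, and 339 called probe sets had no single gene symbol. A change of over 2-fold was seen for 108 of the higher and 73 of the lower probe sets, and the median difference over all probe sets was -0.02 on the log2 scale. The 2 high arrays lay above all 3 low arrays for 16.9% of the probe sets and below them for 23.3%. Calls fell to 761 without control 3, 1025 without knockdown 2, 1075 without control 1 and 1127 without knockdown 3, and 578 probe sets were called with every array left out in turn (277 higher, 301 lower). A second scaling evened the directions, with 959 higher and 884 lower after cyclic loess and 910 higher and 931 lower after a repeated quantile normalization. In bulk RNA of this kind, fewer cells of a type and less RNA per cell cannot be told apart.

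The 15 genes with the largest positive difference were led by CG3397, the ionotropic receptor genes Ir75a and Ir75b, and CG1208. CG3397 read 8.84 and 8.75 on the high side, against 4.74, 5.56 and 5.05 on the low side, a difference of 3.68 ± 0.21 (SE; 12.8-fold; adjusted p = 0.00011). Ir75a, a member of the receptor family that flies use to sense acids, read 7.86 and 7.92 on the high side, against 4.71, 4.72 and 4.86 on the low side (3.13 ± 0.08, SE; adjusted p = 8.54e-06). Its relative Ir75b read 7.41 and 7.63 on the high side, against 4.58, 4.66 and 4.78 on the low side (2.85 ± 0.10, SE; adjusted p = 1.83e-05). For all of these the sides stood several log2 units apart. The genes were chosen for the largest differences without overlap, so this separation follows from the choice. Ranked by mean signal, the dimmest of 3 equal classes of probe sets ran from 3.10 to 5.56, the lowest part of the scale. All low-side values lay in that class for 9 of the 15 higher genes, CG3397, Ir75a, Ir75b, CG1208, CG43074, Obp83cd, CG8160, CG4467 and TpnC4, so these folds, the 12.8-fold of CG3397 included, may be compressed.

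Among the other higher genes were a secreted factor, membrane proteins and an enzyme. mav, or maverick, a ligand of the TGF-beta superfamily, read 9.21 and 9.35 on the high side, against 7.05, 7.06 and 6.95 on the low side, 4.79-fold higher (adjusted p = 1.83e-05). Tsp42Ec, a tetraspanin, one of a family of proteins that span the membrane 4 times, read 8.82 and 8.76 on the high side, against 5.91, 6.05 and 6.22 on the low side (adjusted p = 2.15e-05). Cyp6a23, a cytochrome P450, read 8.48 and 8.89 on the high side, against 6.87, 6.86 and 6.72 on the low side (adjusted p = 0.00019). None of these genes overlapped between sides, a condition of the naming rule. The remaining higher genes were CG43074 (2.78), the odorant-binding protein gene Obp83cd (2.74), CG8160 (2.67), CG4467 (2.57), CG1077 (2.23), Elal (2.17), the troponin C gene TpnC4 (2.04) and CG15213 (1.97), each a log2 difference.

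**Figure D1:**
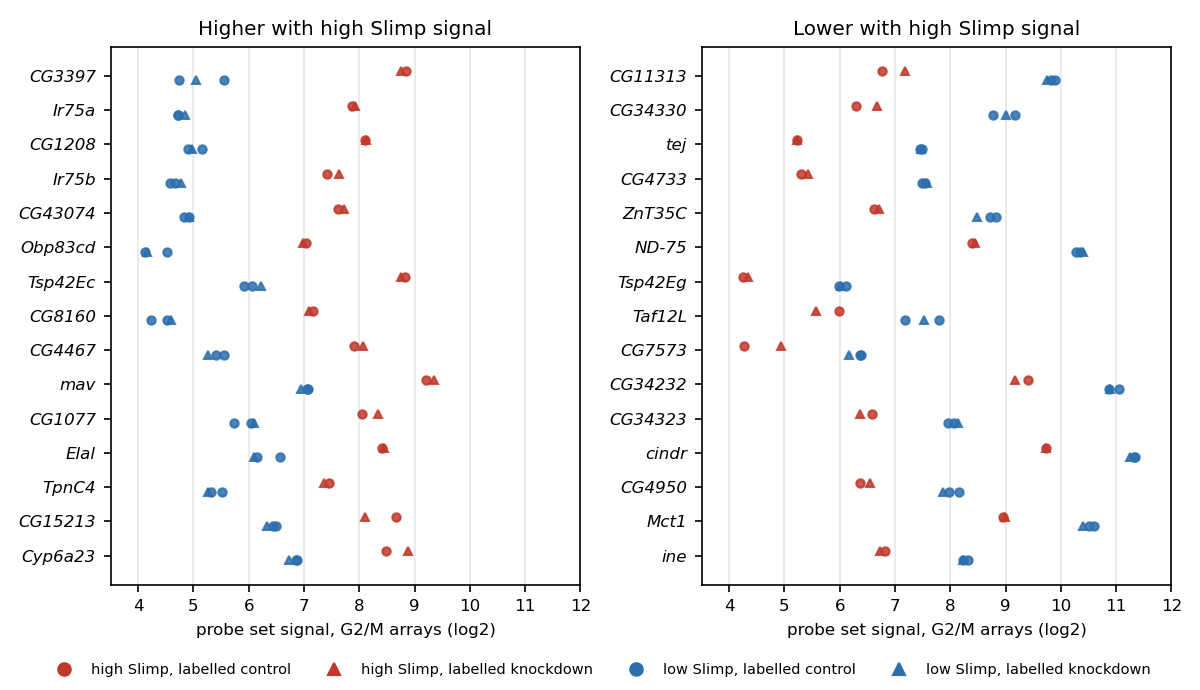
Log2 signal on the 5 G2/M arrays for the 15 genes with the largest positive (left) and the 15 with the largest negative difference (right); each point is 1 array, red for the high side and blue for the low side, circles for control and triangles for knockdown labels. CG3397 stands at 8.84 and 8.75 in red, with its blue points at 4.74 to 5.56. The genes were chosen for large differences without overlap, so the separation of red and blue follows from the choice.

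The 15 genes with the largest negative difference were led by CG11313 and CG34330 and included genes of the piRNA pathway, zinc transport and respiratory complex I. CG11313 read 6.76 and 7.17 on the high side, against 9.90, 9.82 and 9.75 on the low side (-2.85 ± 0.12, SE; 7.24-fold lower; adjusted p = 3.65e-05). tej, or tejas, which encodes a Tudor-domain protein of the germline pathway that silences transposons through small RNAs, read 5.23 and 5.24 on the high side, against 7.46, 7.49 and 7.47 on the low side (-2.24; adjusted p = 8.54e-06). ZnT35C, a zinc transporter, read 6.62 and 6.72 on the high side, against 8.72, 8.84 and 8.49 on the low side (-2.01; adjusted p = 9.18e-05). CG34330 read 6.30 and 6.68 on the high side, against 9.16, 8.77 and 9.01 on the low side. These 4 genes too were chosen for large differences without overlap.

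Other lower genes encoded an adaptor, transporters and a second tetraspanin. cindr, an adaptor protein that links membrane receptors to the actin cytoskeleton, read 9.73 and 9.74 on the high side, against 11.33, 11.32 and 11.25 on the low side (2.96-fold lower; adjusted p = 3.65e-05). Mct1, a monocarboxylate transporter, read 8.96 and 8.99 on the high side, against 10.50, 10.60 and 10.41 on the low side (adjusted p = 8.14e-05). Tsp42Eg read 4.26 and 4.34 on the high side, against 5.99, 6.11 and 6.01 on the low side, so that 2 tetraspanin genes named for the same chromosome region, Tsp42Ec and Tsp42Eg, moved in opposite directions. The rest were CG4733 (-2.18), Taf12L (-1.72), CG7573 (-1.71), CG34232 (-1.65), CG34323 (-1.57), CG4950 (-1.55) and ine (-1.49), a gene of the neurotransmitter transporter family. All high-side values of tej, CG4733, Tsp42Eg and CG7573 lay in the dimmest class, with the same limit on their differences. With each array left out in turn, the difference of CG3397 ran from 3.49 to 3.90 and that of CG7573 from -2.05 to -1.36. All 30 named genes were chosen for large differences without overlap on these same arrays, so that they kept their sign follows from the choice.

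The mitochondrial genes had 1 gene far from the others. ND-75, a core subunit of respiratory complex I, read 8.38 and 8.45 on the high side, against 10.35, 10.27 and 10.40 on the low side (-1.92 ± 0.07, SE; 3.79-fold lower; adjusted p = 2.64e-05). Of 76 measured nuclear genes of oxidative phosphorylation, 2 were higher and 10 lower, 9 had a positive difference and the median was -0.14. Among all 11980 named genes, each represented by 1 probe set, 11.7% were called, 4.97% higher and 6.69% lower, with a median of -0.02. Of these 11980 genes, 5446 had a positive difference. These shares are the base for each G2/M list count below. The share called rose with signal, to 15.9% in the brightest of 3 equal classes of probe sets. In the oxidative phosphorylation list 15.8% were called, and 61 of its 76 genes lay above the median signal. The other 9 lower genes of the respiratory chain differed by -0.45 (Sdhaf3, an assembly factor of complex II) to -0.28 (ND-B18), all smaller than ND-75 by over 1 log2 unit. Without single arrays 1 or 2 members of this list were called lower. ND-75 passed in all 5 such fits and Sdhaf3 in 1 of 5, with adjusted p-values of up to 0.112.

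Among mitochondrial ribosomal proteins, more genes were lower than higher on the high side, by small amounts. Of 69 measured genes, 13 were lower and 2 higher, and 7 had a positive difference. Over all 11980 named genes 4.97% were higher and 6.69% lower, and 5446 had a positive difference. All 69 genes lay above the median signal of all probe sets, and 15.9% of the brightest class were called. Their median signal on each array was 9.77 and 9.78 on the high side, against 10.01, 10.05 and 10.05 on the low side. mRpS14, of the small subunit, read 10.31 and 10.27 on the high side, against 10.82, 10.87 and 10.92 on the low side (-0.58; adjusted p = 0.00279). mRpL36, of the large subunit, differed by -0.54 (adjusted p = 0.00616) and mRpL48 by -0.44 (adjusted p = 0.00755), while mRpL39 was higher by 0.39. Without single arrays 3 to 6 members were called lower and 0 higher, and after cyclic loess 8 were lower and 3 higher.

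SerRS-m, the mitochondrial seryl-tRNA synthetase and nearest relative of Slimp, did not pass the threshold. It read 10.08 and 10.14 on the high side, against 10.37, 10.34 and 10.30 on the low side (-0.23 ± 0.07, SE; adjusted p = 0.0857). Lon, a protease of the mitochondrial matrix, read 11.95 and 12.03 on the high side, against 12.16, 12.18 and 12.14 on the low side (-0.17; adjusted p = 0.176). Of the 14 measured mitochondrial aminoacyl-tRNA synthetases only AsnRS-m was called (-0.40; adjusted p = 0.013), a call that passed in 3 of the 5 fits without an array (adjusted p up to 0.0744). In the list of mitochondrial DNA maintenance and proteases, 15 genes, the single-strand binding protein mtSSB was lower (-0.33) and the membrane protease gene Spg7 higher (0.37). With each array left out in turn, mtSSB passed in 0 of 5 fits and Spg7 in 1, with adjusted p-values of up to 0.127 and 0.0807. Of 9 genes of the TCA cycle, only Ogdh was called (0.41; adjusted p = 0.0433), and it passed in 1 of the 5 fits without an array (adjusted p up to 0.145).

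Of 16 measured cytosolic aminoacyl-tRNA synthetases, 5 were higher and 0 lower, 11 were not called and 14 had a positive difference, with a median of 0.20. GlyRS, which charges tRNA with glycine, read 10.46 and 10.56 on the high side, against 9.52, 9.55 and 9.55 on the low side (0.97 ± 0.07, SE; adjusted p = 0.000302). AlaRS, TrpRS, LeuRS and HisRS were higher by 0.47, 0.50, 0.34 and 0.30 on the log2 scale. Without single arrays 2 to 4 were called. TrpRS lost its call without knockdown 2 (adjusted p = 0.062), and LeuRS passed in 1 of the 5 fits (adjusted p up to 0.112). Cytosolic ribosomal proteins, 41 genes, had a median of -0.02, with 0 higher and 2 lower. Those 2, RpS19b (-0.56) and RpL37-2 (-0.49), are paralogs of common ribosomal protein genes, and RpL37-2 passed in 3 of the 5 fits without an array (adjusted p up to 0.0701).

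Glycolysis, the cytosolic breakdown of glucose, had 7 of its 11 measured genes higher and 1 lower, with a median of 0.47. Pfk, phosphofructokinase, the main control point of the pathway, read 10.51 and 10.67 on the high side, against 9.57, 9.46 and 9.48 on the low side (1.09 ± 0.08, SE; 2.12-fold; adjusted p = 0.000325). Tpi, triose phosphate isomerase, read 10.71 and 10.86 on the high side, against 9.85, 9.65 and 9.65 on the low side (1.06; adjusted p = 0.000706). Eno, enolase, read 11.86 and 11.87 on the high side, against 11.33, 11.33 and 11.26 on the low side (0.56; adjusted p = 0.00287). Both high arrays exceeded all low arrays for each of these enzymes. The aldolase gene Ald1 (0.59), Hex-A (0.48), Pglym78 (0.47) and Pgk (0.34) were also higher. The hexokinase gene Hex-C was lower, by 0.47 on the log2 scale (difference -0.47). Pgi (0.30), Gapdh1 (0.18) and Glut1 (-0.03) were not called. Higher members numbered 3 without knockdown 2 and up to 6 without another array, and Ald1 lost its call without knockdown 2 (adjusted p = 0.0789).

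Most of the measured genes of the replication machinery were lower on the high side in G2/M. Of 38 measured genes of the G1/S transition and DNA replication, 24 were lower and 0 higher, the largest share called lower among the 39 lists, and the median was -0.43. Mcm5, a subunit of the helicase that opens the DNA at origins, read 9.18 and 9.52 on the high side, against 10.04, 10.41 and 10.14 on the low side (-0.85 ± 0.14, SE; adjusted p = 0.00949). PolA1, the catalytic subunit of DNA polymerase alpha, read 9.21 and 9.24 on the high side, against 9.97, 10.24 and 10.03 on the low side (-0.85; adjusted p = 0.0018). PolE1, of DNA polymerase epsilon, read 9.14 and 9.39 on the high side, against 10.01, 10.31 and 9.96 on the low side (-0.82; adjusted p = 0.00761). The called genes covered the helicase (Mcm2, Mcm3, dpa, Mcm5, Mcm6), its loaders (Cdc6, dup), the clamp PCNA and its loader subunits RfC3, RfC38 and Gnf1, and CycE with its kinase Cdk2. CycD, Cdk4, E2f2, Dp and Rbf, the upstream regulators of this programme, differed by -0.11 to 0.02 and were not called. The count was 9 without control 3, and Mcm2, Mcm5 and PolE1 lost their calls without that array (adjusted p = 0.0874, 0.0696 and 0.0639).

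Of 54 measured genes of G2/M and mitosis, 22 were lower, 0 higher and 32 not called. Their median was -0.26, and 7 had a positive difference. glu, a subunit of condensin, which compacts chromosomes, read 10.24 and 10.13 on the high side, against 10.86, 10.96 and 10.90 on the low side (-0.72 ± 0.07, SE; adjusted p = 0.00141). ncd, a kinesin of the spindle, read 10.89 and 10.92 on the high side, against 11.54, 11.61 and 11.60 on the low side (-0.68; adjusted p = 0.00132). The centrosome gene spd-2 (-0.57) and the kinetochore gene Ndc80 (-0.51) followed. The lower genes included the whole chromosomal passenger group that was measured (aurB, Incenp, borr and Det) and the cyclin gene CycB3 (-0.44), while CycB (-0.25; adjusted p = 0.074) was not called. The count was 7 without control 3 and 15 after cyclic loess, and the 4 genes with values here passed in all 5 fits that left out an array.

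In G1, 0 of the replication genes were called, and of the mitotic genes 1 was higher and 0 lower. The median of the replication list on each G1 array was 9.15 and 9.33 on the high side, against 9.56, 9.47 and 9.36 on the low side. In G2/M it was 9.20 and 9.37 on the high side, against 9.75, 9.81 and 9.72 on the low side, so the high arrays lay below the low arrays in both phases. The median of the mitotic list on each G1 array was 9.15 and 9.23 on the high side, against 9.32, 9.24 and 9.23 on the low side. In G2/M it was 9.70 and 9.65 on the high side, against 10.06, 10.11 and 10.12 on the low side. The list median thus stood 0.55 and 0.42 higher in G2/M than in G1 for the high cultures, against 0.74, 0.87 and 0.89 for the low cultures. For the replication list this step was 0.05 and 0.04 in the high cultures, against 0.19, 0.34 and 0.36 in the low cultures. The share of G1 or S-phase cells in each G2/M sort was not measured, and its part in the lower values of both lists was not tested.

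A test of the difference itself, the within-culture step between phases compared between sides, called 38 of 18768 probe sets (0.202%), of which 5 were positive (0.0266%) and 33 negative (0.176%). It called 0 of the replication genes and 0 of the mitotic genes. At an unadjusted p under 0.05 it held 24 of 38 replication genes (37 of 38 negative, median -0.36, smallest adjusted p 0.07) and 35 of 54 mitotic genes (48 of 54 negative, median -0.30, smallest adjusted p 0.095). Over all probe sets 14.1% reached an unadjusted p under 0.05, and 9.57% did so with a negative sign. In this test over all 18768 probe sets, the lower levels of both lists in G2/M are therefore not shown, after adjustment, to differ from G1. That outcome may depend on the probe sets tested. Among probe sets above the median signal the phase test made 468 calls, 98 positive and 370 negative. Above that median lay 36 of 38 replication genes and 49 of 54 mitotic genes. Their phase calls in that setting are not given here. Glycolysis had 7 genes higher and 0 lower in G1 and a median of 0.59 there, where 5.84% of all named genes were higher and 3.29% lower. The phase test called 0 of its 11 genes and held 4 of 11 at an unadjusted p under 0.05 (7 of 11 negative, median -0.17, smallest adjusted p 0.093).

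**Figure D2:**
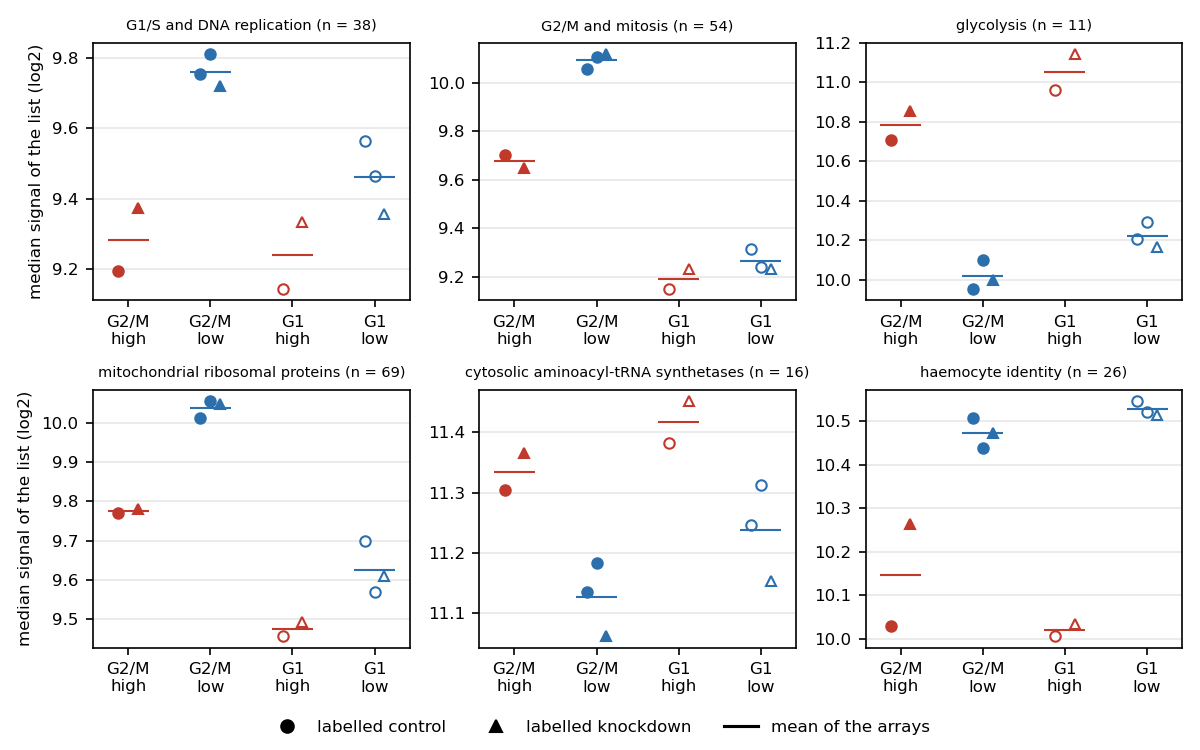
Median log2 signal of 6 gene lists on each array, with the G2/M arrays filled and the G1 arrays open, red for the high side and blue for the low side, circles for control and triangles for knockdown labels; the line is the mean of the arrays and n is the number of genes. The mitotic list reads 9.70 and 9.65 on the high side in G2/M, against 10.06 to 10.12 on the low side, while glycolysis is higher on the high side in both phases.

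Genes of xenobiotic metabolism held both directions with more genes higher. Of 81 cytochrome P450 genes, which oxidize foreign compounds and hormones, 14 were higher and 3 lower, with a median of 0.02, and 64 were not called. For this list and the next, the shares over all named genes were 4.97% higher and 6.69% lower. Cyp6a17 read 11.02 and 11.01 on the high side, against 9.56, 9.63 and 9.53 on the low side (1.44 ± 0.07, SE; 2.72-fold; adjusted p = 5.39e-05). Cyp6d5 read 7.162 and 7.501 on the high side, against 6.106, 6.097 and 6.001 on the low side (1.26; adjusted p = 0.000618). Of the 14 higher genes, 9 belonged to the Cyp6 family, and whether probes of close relatives such as Cyp6a17 and Cyp6a23 read each other's transcripts was not analysed here. Of 34 glutathione S-transferases, which couple glutathione to toxic compounds, 8 were higher and 2 lower. GstE11 read 10.05 and 9.96 on the high side, against 8.71, 8.71 and 8.75 on the low side (1.28 ± 0.07, SE; adjusted p = 9.34e-05). GstE9 was higher by 0.96 and GstD5 by 0.94, while GstE2 read 10.30 and 10.16 on the high side, against 11.15, 11.06 and 11.16 on the low side (-0.90; adjusted p = 0.00073). The 14 genes of superoxide, peroxide and glutathione defence had 0 calls in limma, with 5 higher at an unadjusted p under 0.05, and a median of 0.13; after cyclic loess 3 were higher.

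Among 212 odorant-binding proteins and chemoreceptors, 12 were higher, a share near that over all named genes (4.97%), 2 were lower, and the median was -0.01. Besides Ir75a, Ir75b and Obp83cd, Obp18a read 8.73 and 8.75 on the high side, against 7.42, 7.53 and 7.67 on the low side (1.20; adjusted p = 0.000325).

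Stress and metal genes changed singly. Hsp68, an inducible heat shock protein, read 11.33 and 10.98 on the high side, against 9.513, 10.001 and 9.436 on the low side (1.503 ± 0.18, SE; 2.83-fold; adjusted p = 0.00265). Hsp26, a small heat shock protein, read 11.10 and 10.71 on the high side, against 9.90, 10.11 and 9.94 on the low side (0.93; adjusted p = 0.00437). Hsc70-4, the constitutive chaperone, was lower (-0.56; adjusted p = 0.00758, and 0.0512 without control 3). Of the 17 genes of this list, 3 were higher and 1 lower. Of 15 genes of the response to amino acid and endoplasmic reticulum stress, 4 were higher and 2 lower. Irbp18, which encodes a C/EBP-type transcription factor, was higher by 0.66 (adjusted p = 0.0018). Sesn, the fly sestrin, was lower, with 9.28 and 9.30 on the high side against 9.94, 9.98 and 9.88 on the low side (-0.65; adjusted p = 0.0018). The kinase gene PEK was higher by 0.45 and passed in 1 of the 5 fits without an array (adjusted p up to 0.156). Nmdmc (-0.58), a mitochondrial enzyme of folate metabolism, lost its call without knockdown 2 (adjusted p = 0.0761).

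Copper switched on the knockdown, so the metal genes were set beside the sides. MtnB, a metallothionein, which binds copper and other metals, read 8.92 and 8.59 on the high side, against 10.11, 10.01 and 9.81 on the low side (-1.22 ± 0.12, SE; 2.33-fold lower; adjusted p = 0.00144). MtnA read 14.02 and 14.02 on the high side, against 14.13, 14.13 and 14.10 on the low side (-0.10; adjusted p = 0.424). It lay near the top of the scale, where the brightest probe set tested averaged 14.23. This probe set could hardly show a rise, and small differences may be compressed. Of 17 metal genes only MtnB and ZnT35C were called, both lower. The part of metal exposure in any other difference was not tested.

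The defining genes of haemocytes were present, and a few were lower on the high side. Of 26 haemocyte genes, 24 lay above the median signal of all probe sets, 0 were higher and 6 lower. Over all named genes 4.97% were higher and 6.69% lower. NimC4, a receptor of the Nimrod family for the uptake of dying cells, read 8.86 and 9.30 on the high side, against 10.23, 10.25 and 10.18 on the low side (-1.14 ± 0.12, SE; 2.21-fold lower; adjusted p = 0.0018). Pxn, the matrix enzyme peroxidasin, was lower by 0.57 (difference -0.57; adjusted p = 0.00361), and the collagen IV genes vkg and Col4a1 differed by -0.61 and -0.34. Hml (-0.02), He (0.04), eater (0.10) and the GATA factor gene srp (-0.04) were not called, and the list median was -0.10. Summed on the linear scale, the list reached 44928 to 49576 on the high side, against 52641 to 54958 on the low side. In G1 the list held 9 lower and 0 higher genes, where 3.29% of all named genes were lower and 5.84% higher. The G2/M count was 2 without control 3, and vkg lost its call there (adjusted p = 0.0687).

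Markers of other cell types had 1 to 3 calls in each list. Summed on the linear scale, the 11 crystal cell and lamellocyte markers reached 4823 to 5085 on the high side, against 4536 to 4711 on the low side. Of these 11, 1 was called, and their median difference was -0.02. The 9 neuronal markers reached 2177 to 2287 on the high side, against 2284 to 2344 on the low side, with 1 called. The 7 muscle markers reached 317 to 331 on the high side, against 284 to 308 on the low side, with a median difference of -0.03. None of them, 0 of 7, lay above the median of all probe sets. Of these 7 only bt, or bent, which encodes a giant muscle protein, was called, at 5.30 and 5.78 on the high side, against 3.55, 3.81 and 4.02 on the low side (1.75; adjusted p = 0.00119). Its low-side values lay in the dimmest class of probe sets. The crystal cell and muscle sums did not overlap between the sides. The muscle sum includes bt, while only 2 of the 7 muscle markers had a positive difference. A muscle sum without bt was not computed, so the markers are not shown to separate as a group. Over all single probe sets, the 2 high arrays lay above all 3 low arrays for 16.9%.

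The germline and ovarian soma markers held 3 lower members of 10 and 0 higher, where 6.69% of all named genes were lower. They summed to 3439 to 3560 on the high side, against 4334 to 4632 on the low side. bam, the switch for germline differentiation, read 8.15 and 8.50 on the high side, against 9.72, 9.47 and 9.54 on the low side (-1.25 ± 0.12, SE; 2.38-fold lower; adjusted p = 0.00119). Its partner bgcn read 7.81 and 7.77 on the high side, against 8.79, 8.86 and 8.70 on the low side (-0.99; adjusted p = 0.000378). AGO3, an Argonaute protein of the piRNA pathway, read 7.72 and 7.73 on the high side, against 8.83, 8.78 and 8.81 on the low side (-1.08; adjusted p = 0.00016). vas, a general germline marker, read a mean of 4.51 on the high side and 4.56 on the low side, near the bottom of the scale, and piwi and aub were not called (0.15 and -0.14). All 3 lower genes passed in each fit that left out an array.

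Among immune genes, 2 targets of the Imd pathway were higher. AttD, an attacin, one of the antimicrobial peptides, read 12.12 and 11.91 on the high side, against 10.18, 10.27 and 10.13 on the low side (1.82 ± 0.09, SE; 3.54-fold; adjusted p = 5.39e-05). DptB, a diptericin, read 11.45 and 11.07 on the high side, against 10.17, 10.08 and 10.02 on the low side (1.17; adjusted p = 0.00126). The defensin gene Def was lower (-0.36; adjusted p = 0.0351), a call that passed in none of the 5 fits without an array. Of the 19 genes of this list 2 were higher and 1 lower. Of 13 Toll pathway genes, 2 were higher and 1 lower, with a median of -0.02. The peptide gene Drs was higher (0.57; adjusted p = 0.0043) and passed in all 5 fits without an array. The inhibitor gene cact (0.35) was higher and the adaptor gene Myd88 (-0.35) lower, and both passed in 0 of these 5 fits. Of the 13 genes of the JNK list, 2 were higher and 2 lower, with a median of 0.07. The TNF ligand egr was lower (-0.42; adjusted p = 0.00852), as was its receptor wgn (-0.52; adjusted p = 0.0149), which passed in 3 of the 5 fits without an array. The adaptor gene Traf4 (0.65) and the transcription factor gene Ets21C (0.58) were higher, and passed in 2 and 4 of these fits. JAK/STAT, 8 genes, had 0 calls in limma, with 1 higher at an unadjusted p under 0.05 and 1 called after cyclic loess.

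Matrix, adhesion and lipid genes held single large changes. trol, the basement membrane proteoglycan perlecan, averaged 10.95 ± 0.08 on the high side (SD, n = 2) and 9.52 ± 0.12 on the low side (SD, n = 3), a difference without overlap (1.42 ± 0.09, SE; 2.68-fold; adjusted p = 0.00017). if, an integrin alpha chain, read 4.954 and 4.947 on the high side, against 5.955, 5.994 and 6.002 on the low side (-1.03; adjusted p = 0.000184). Its high-side values lay in the dimmest class of probe sets, so this difference may be compressed. The protease gene Mmp2 (-0.70) and the E-cadherin gene shg (-0.65) were also lower, with 1 higher and 4 lower of 21. The triglyceride synthesis gene mdy was lower (-0.98; adjusted p = 0.00604), and the lipase genes Lip4 (1.002; adjusted p = 0.00119) and bmm (0.51; adjusted p = 0.0106) were higher. bmm passed in 3 of the 5 fits without an array (adjusted p up to 0.0645). The lipoprotein receptor gene LpR1 read 6.50 and 6.21 on the high side, against 7.31, 8.00 and 7.19 on the low side (-1.14; adjusted p = 0.0205), and it too passed in 3 of the 5 fits (adjusted p up to 0.122).

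Of 23 genes of the DNA damage response and apoptosis, 1 was higher and 4 lower. tefu, the fly ATM kinase, which senses double-strand breaks, read 9.46 and 9.55 on the high side, against 10.61, 10.65 and 10.60 on the low side (-1.12 ± 0.07, SE; 2.17-fold lower; adjusted p = 0.00017). The checkpoint kinase genes grp (-0.52; adjusted p = 0.00445) and lok (-0.47; adjusted p = 0.0241) were lower, and lok passed in 1 of the 5 fits without an array (adjusted p up to 0.115). p53 was higher by 0.35. Of 40 proteasome genes, 1 was higher and 5 lower, with a median of -0.19. This share (15.0%) was near that of the brightest class of probe sets (15.9%). Prosbeta4 differed by -0.42 (adjusted p = 0.00846). Of 25 autophagy genes, 3 were higher and 0 lower, among them the adaptor gene ref(2)P (0.50; adjusted p = 0.00679). Of 17 genes of the TGF-beta superfamily, mav and the signal transducer gene Mad (0.47) were higher, and Mad passed in 1 of the 5 fits without an array (adjusted p up to 0.127). The third called gene there, the ligand gene daw, was lower by 0.88 (difference -0.88), with an adjusted p of 0.0417. It passed in 1 of the 5 fits without an array (adjusted p up to 0.197) and was not called after cyclic loess. In the lists of insulin and TOR, ecdysone, Notch with Hedgehog and Wingless, EGF with FGF and PVF, Hippo, RNA interference and mitochondrial import, 0 to 2 genes were called in each direction.

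**Figure D3:**
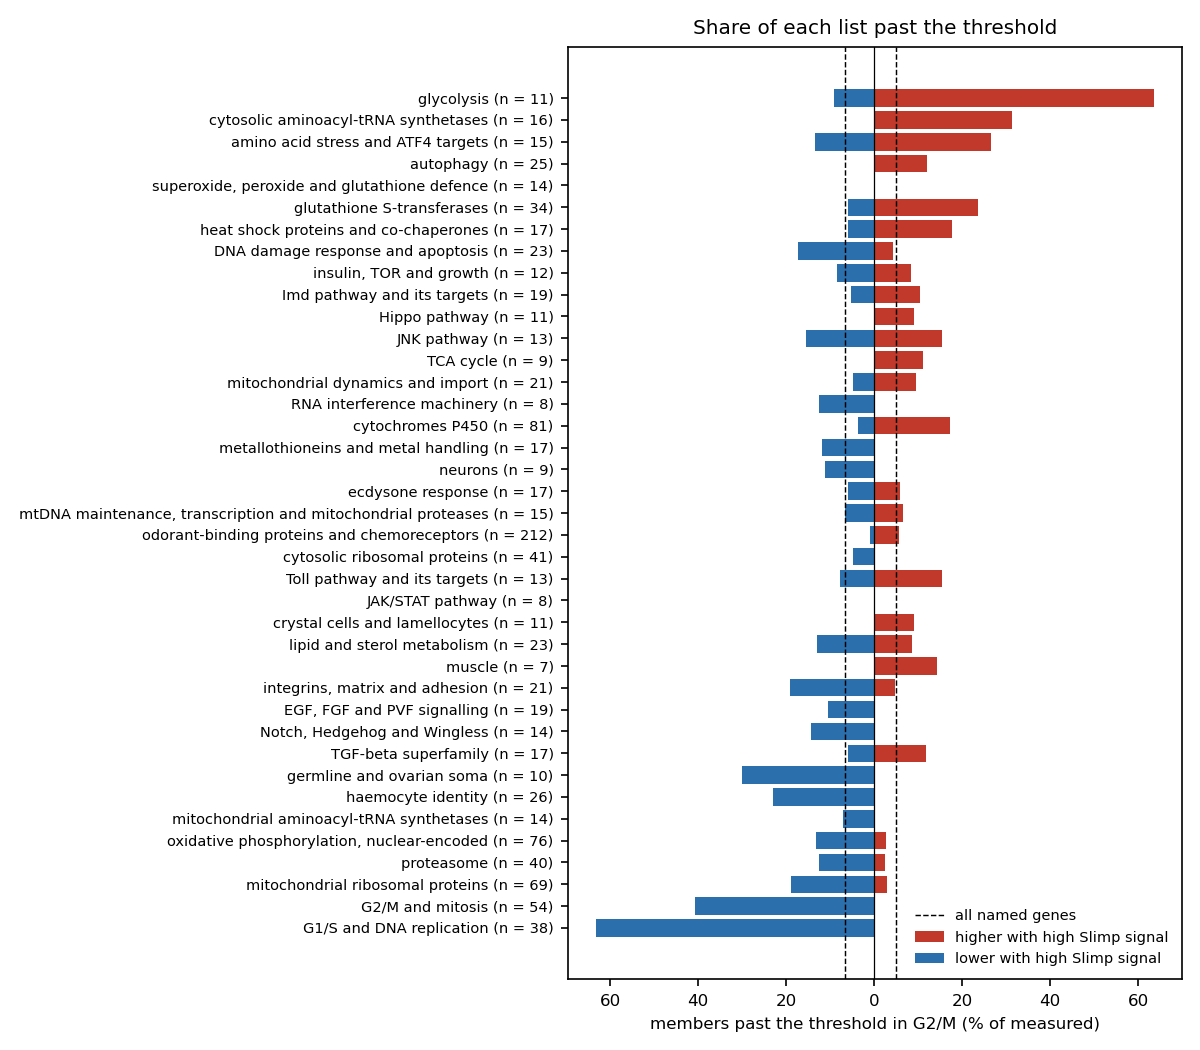
Share of each gene list's measured genes past the threshold in G2/M, red to the right for higher and blue to the left for lower on the high side, ordered by the list's median difference; dashed lines mark the shares over all named genes (4.97% higher, 6.69% lower). Replication (24 of 38 lower) and mitosis (22 of 54 lower) stand at the bottom and glycolysis (7 of 11 higher) at the top.

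Chromosome 4 is the small dot chromosome. Of 65 measured genes there, 13 were higher and 1 lower, 48 had a positive difference and the median was 0.10. On the other arms 4.06% to 5.27% of the genes were higher and 5.42% to 7.95% lower. mav lies on this chromosome, as does bt, and both are among the results above. RhoGAP102A, on the same chromosome, had a mean of 10.752 on the high side and 10.004 on the low side (0.75 ± 0.08, SE). In G1 the chromosome held 13 higher, 1 lower and 43 positive genes.

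Called genes also lay beside each other along the chromosomes, in the gene order of RefSeq Release 6. Of the genes adjoining a higher gene, 14.6% were themselves higher, against 5.01% of all placed genes, and 13.3% of those adjoining a lower gene were lower, against 6.71%. The longest run was 6 neighbouring genes on arm 3L, sstn, GlyRS, Ctps, CG13458, Cep135 and CG16959, all higher by 0.31 to 1.21. CG3397 lay in a run of 5 higher genes on 3R with CG10005, CG18547, CG12224 and Ect3 (0.66 to 3.68). A run of 5 lower genes on 3L was made of CG18234, CG18233, CG18231, CG32201 and CG32199 (-0.70 to -0.58). Neighbours that are paralogs or overlap were not separated.

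The G1 arrays of the same cultures did not set the sides and give a second reading of the contrast, though not from independent cultures. In G1 the Slimp signal was 12.55 and 12.59 in the high cultures, against 8.80, 8.95 and 8.68 in the low cultures. Limma called 1493 probe sets in G1 (7.96%), 898 higher (4.78%) and 595 lower (3.17%). Of the G2/M calls, 892 were called in the same direction in G1, which is 47.1% of the G2/M calls and 59.7% of the G1 calls, and 1 was called in the opposite direction. The sign was the same in G1 for 92.4% of the G2/M calls, against 65.7% of all probe sets. Of the G2/M calls over 2-fold, 105 of 108 higher and 65 of 73 lower were called in G1 too. All 15 higher and all 15 lower named genes were called the same way in G1, with Ir75a at 3.66, CG3397 at 3.49, CG11313 at -2.36 and ND-75 at -1.97. G1 calls numbered 335 without control 3, 395 without knockdown 2 and 918 without knockdown 3.

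**Figure D4:**
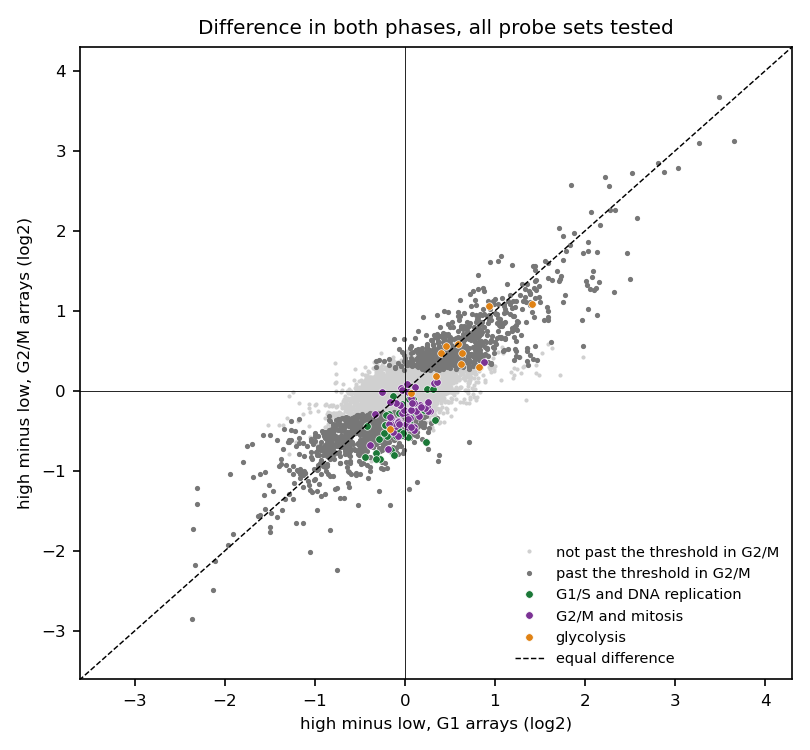
High minus low difference (log2) of every probe set tested, G1 arrays on the horizontal and G2/M arrays on the vertical axis; dark points passed the threshold in G2/M, colours mark 3 lists and the dashed line is equality. Ir75a (3.13 in G2/M, 3.66 in G1) lies near the dashed line and tej (-2.24 in G2/M, -0.76 in G1) away from it. Of the replication genes 2 of 38, and of the mitotic genes 7 of 54, lie above 0 in G2/M, and the list medians in G1 are -0.09 and 0.02.

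The genotype label, fitted beside the side, called 0 of 18768 probe sets in limma (0.0%), with 623 at an unadjusted p under 0.05. Without the side in the fit it called 0 as well, with 277 at an unadjusted p under 0.05. The genes with the smallest p for the label, CG40378, Alp1 and sano, did not pass.

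Array control probe sets at the 3′ and 5′ ends of long transcripts show how evenly the amplified cDNA was read. In G2/M the 3′ minus 5′ difference for actin was 0.459 to 0.516 (log2) on the high side, against 0.354 to 0.493 on the low side. For GAPDH it was 1.045 to 1.124 on the high side, against 1.185 to 1.313 on the low side, and for eIF4A 1.293 to 1.373 on the high side, against 1.325 to 1.463 on the low side. In G1 the actin difference was 0.586 to 0.654 on the high side, against 0.352 to 0.463 on the low side, and eIF4A 1.188 to 1.285 on the high side, against 1.321 to 1.435 on the low side. The GAPDH ranges did not overlap in G2/M, nor those of actin and eIF4A in G1, and the part of 5′ coverage in the differences above was not tested. The array controls named BioB and BioC read highest on control 3 among the G2/M arrays. BioB-3 read 11.263 and 10.808 on the high side, against 10.860, 10.883 and 10.685 on the low side. The part of this technical difference in the results above was not tested. By signal, 2.24% of the dimmest of 3 equal classes of probe sets were called, 12.2% of the middle class and 15.9% of the brightest. Of 1094 genes with 2 or more probe sets, 217 had a call, and in 164 of these all probe sets had the same sign.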

How the data were processed

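Values on the log2 scale were deposited by the authors for 10 arrays, and the submitters' processing notes name RMA as the tool. RMA makes the distributions of the arrays alike, which would hide a shift common to most genes; the medians ran from 6.553 to 6.608. Of 18952 probe sets, 183 array controls and the Slimp probe set were left out of the tests. The platform annotation, updated through RefSeq Release 6, gave 1 symbol to 13645 probe sets, several to 402 and none to 4721. No filter on dim signal was used.

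Sides were compared over the 5 G2/M arrays with limma 3.58.1 in R 4.3.3 (residual df 3, prior df 4.46), with Benjamini-Hochberg adjustment over 18768 probe sets at 0.05. The G1 arrays were fitted likewise, and the phase test used each culture's G2/M minus G1 difference. P-values measure the spread between these arrays, which may be technical. Gene lists used the probe set with the highest mean per gene, with no set test. The named genes were SerRS-m and Lon, then the 15 largest called differences each way without overlap (1 probe set per gene, smallest p), then up to 4 called members per list, and the smallest p-values for the phase and label tests. Other genes were named after their values were seen. The members and lists were chosen with earlier results of these data known. Likeness to Slimp over the 5 G1 arrays was not computed, since 5 arrays in separate clusters give no usable correlation. The fit was tested on simulated data. Alternatives were other scalings, a filter on signal, a trended prior, a replicate block, the label as a covariate, all 10 arrays together and each array left out. Replicate numbers were checked as a pairing: only 2 pairs cross the sides, so they were not used as one.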

Additional observations from a re-analysis of the deposited data

Results flagged for a closer look

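For 7 named genes the high minus low difference itself differed between G2/M and G1 (limma on within-culture steps, 5 cultures). Up to 5 genes were named for the smallest p-values in this same test, so their passing follows from the choice. Over all 18768 probe sets the test called 38 (0.202%). tej had a step of -1.483 (adjusted p = 0.0252), with differences of -2.24 in G2/M and -0.76 in G1. The scavenger receptor gene Sr-CIV had 0.947 (adjusted p = 0.0367), lower by less in G2/M (-0.55) than in G1 (-1.50). NijB, a ninjurin, had -1.525 (adjusted p = 0.00878), with 0.20 in G2/M and 1.73 in G1. CG32280 had -1.461 (adjusted p = 0.0252), with -0.11 in G2/M and 1.35 in G1. CG9570 had -1.141 and CG33775 -1.089, each with an adjusted p of 0.0252 and a larger positive difference in G1 (1.46 and 1.63) than in G2/M (0.32 and 0.54). Alp1, an alkaline phosphatase gene, had -1.276 (adjusted p = 0.0252), with -1.23 in G2/M and 0.05 in G1. Without the culture labelled control 3, knockdown 2 or knockdown 3 limma called 0 probe sets in this test (1784, 2553 and 1910 at an unadjusted p under 0.05), and without control 2 it called 1.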

How the results depend on the processing

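The G2/M count of 1894 calls ranged from 761 to 1358 when each array was left out. It stayed within 1.5 times of 1894 under repeated quantile normalization (1841), cyclic loess (1843) and a trended and robust prior (2611). The same held with the label as a covariate (1386), all 10 arrays in the fit (1754) and the replicate block (1726). A filter to probe sets above the median signal left 9384 to test and called 2283, a larger share than the 1894 of 18768. With a high-side array left out, the lone array left on that side is assumed to vary like the low side. The G1 count of 1493 ranged from 335 to 1338 without single arrays, and was 2310 with the trended and robust prior, 2767 with all 10 arrays and 1561 with the replicate block. Same-numbered arrays of the 2 sides correlated at 0.176 and 0.249 in their deviations, and the share of higher calls in G2/M was 41.6%, 49.4% after quantile normalization and 52.0% after cyclic loess. The phase test's 38 calls were 468 (98 positive, 370 negative) among probe sets above the median signal and 0 to 33 without single cultures. Of 1567 values for 132 called named genes under the alternatives, 1351 kept their call, 216 lost it and 0 changed sign. These genes were named for their calls on the same arrays. Where the sides of a gene do not overlap, leaving out a single array cannot change the sign of its difference. The cause of the changes between settings was not tested, beyond the fewer arrays or probe sets in the fits named. Presence calls were not used, so signals close to the floor of the array carry only relative information.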
